A study of Homo sapiens with 8 samples.

Results

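The loci of 7 genes of the epithelial-mesenchymal transition (EMT) were examined for dimethylation of lysine 4 of histone H3 (H3K4me2) in RD cells, an established human rhabdomyosarcoma line. They are the genes of the transcription factors SNAI1, SNAI2, TWIST1, TWIST2, ZEB1 and ZEB2, and EPCAM, the gene of an epithelial adhesion molecule. Each locus is a gene interval on the hg19 build, fixed to about 1 kb and widened by 20 kb on each side, and its members are the deposited peaks that overlap it. The 2 siLSD1 libraries came from cells transfected with a siRNA against LSD1, and the 2 siCtrl libraries from cells given a control siRNA with the same reagent. All cells were of passages 10 to 15, and were harvested 96 hours after transfection. A single siRNA construct was used against LSD1 in a single cell line, and these lists hold no measure of LSD1 itself. The loci held 36 of 50587 and 32 of 49611 peaks in siLSD1 replicates 1 and 2, and 23 of 33878 and 33 of 44831 peaks in siCtrl replicates 1 and 2.

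In EMT, epithelial cells loosen their junctions and take on a migratory, mesenchymal state. The SNAI and ZEB factors are zinc finger repressors that bind E-box sequences in epithelial genes such as CDH1, and the TWIST factors are basic helix-loop-helix proteins that bind E-boxes as dimers. LSD1, also named KDM1A, is a demethylase of this mark and of the monomethylated form, and the N-terminal SNAG domain of SNAI1 and SNAI2 is known to bind it. H3K4me2 marks promoters and enhancers. Rhabdomyosarcoma is a mesenchymal tumour with features of skeletal muscle.

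Peaks covered 96.9 and 104 Mb in the siLSD1 libraries, and 70.1 and 94.1 Mb in the siCtrl libraries. The lists give no read depth, so the number of reads behind each value is unknown. The siCtrl replicate 1 list was the shortest. As a check of the cell label, peaks lay within 1 kb of the starts of the muscle genes MYOD1, MYOG and DES in all 4 libraries, and of MYF5 in 0 libraries. CDH1, the epithelial cadherin gene, had a peak within 1 kb of its start in 0 of 4 libraries. Of the 8 epithelial genes examined below, CDH1 included, 3 had such a peak in all 4 libraries and 4 in 0 libraries. These starts are ends of intervals entered by hand. Those without a peak include the clusters of MIR200B to MIR429 and of MIR200C and MIR141. For these the start is that of the cluster interval, which was not checked against RefSeq and may not be where transcription begins. Whether the replicates came from separate cultures is not stated beyond the submitters' word biological.

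All 7 gene starts were marked in all 4 libraries, and at 6 of them the breadth of the marked region overlapped between the groups. The clearest difference was at TWIST2, where 2 sites inside the gene had a peak in each siLSD1 library and in no siCtrl library. The authors' pooled siCtrl list did hold a weak peak over the first site. The second site was absent when equal numbers of peaks were taken from each list. EPCAM had a broader upstream region after siLSD1, while the groups overlapped at its start. Over the 7 loci together, 81.14 and 80.8 kb lay under peaks in the siLSD1 libraries, against 62.9 and 77.2 kb in the siCtrl libraries. That is a ratio of 1.15 between the group means, beside 1.23 for all analysed chromosomes. Scaled to the covered length of each list, the siLSD1 mean was the higher at TWIST2 and EPCAM and the lower at the other 5 loci.

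**Figure D1:**
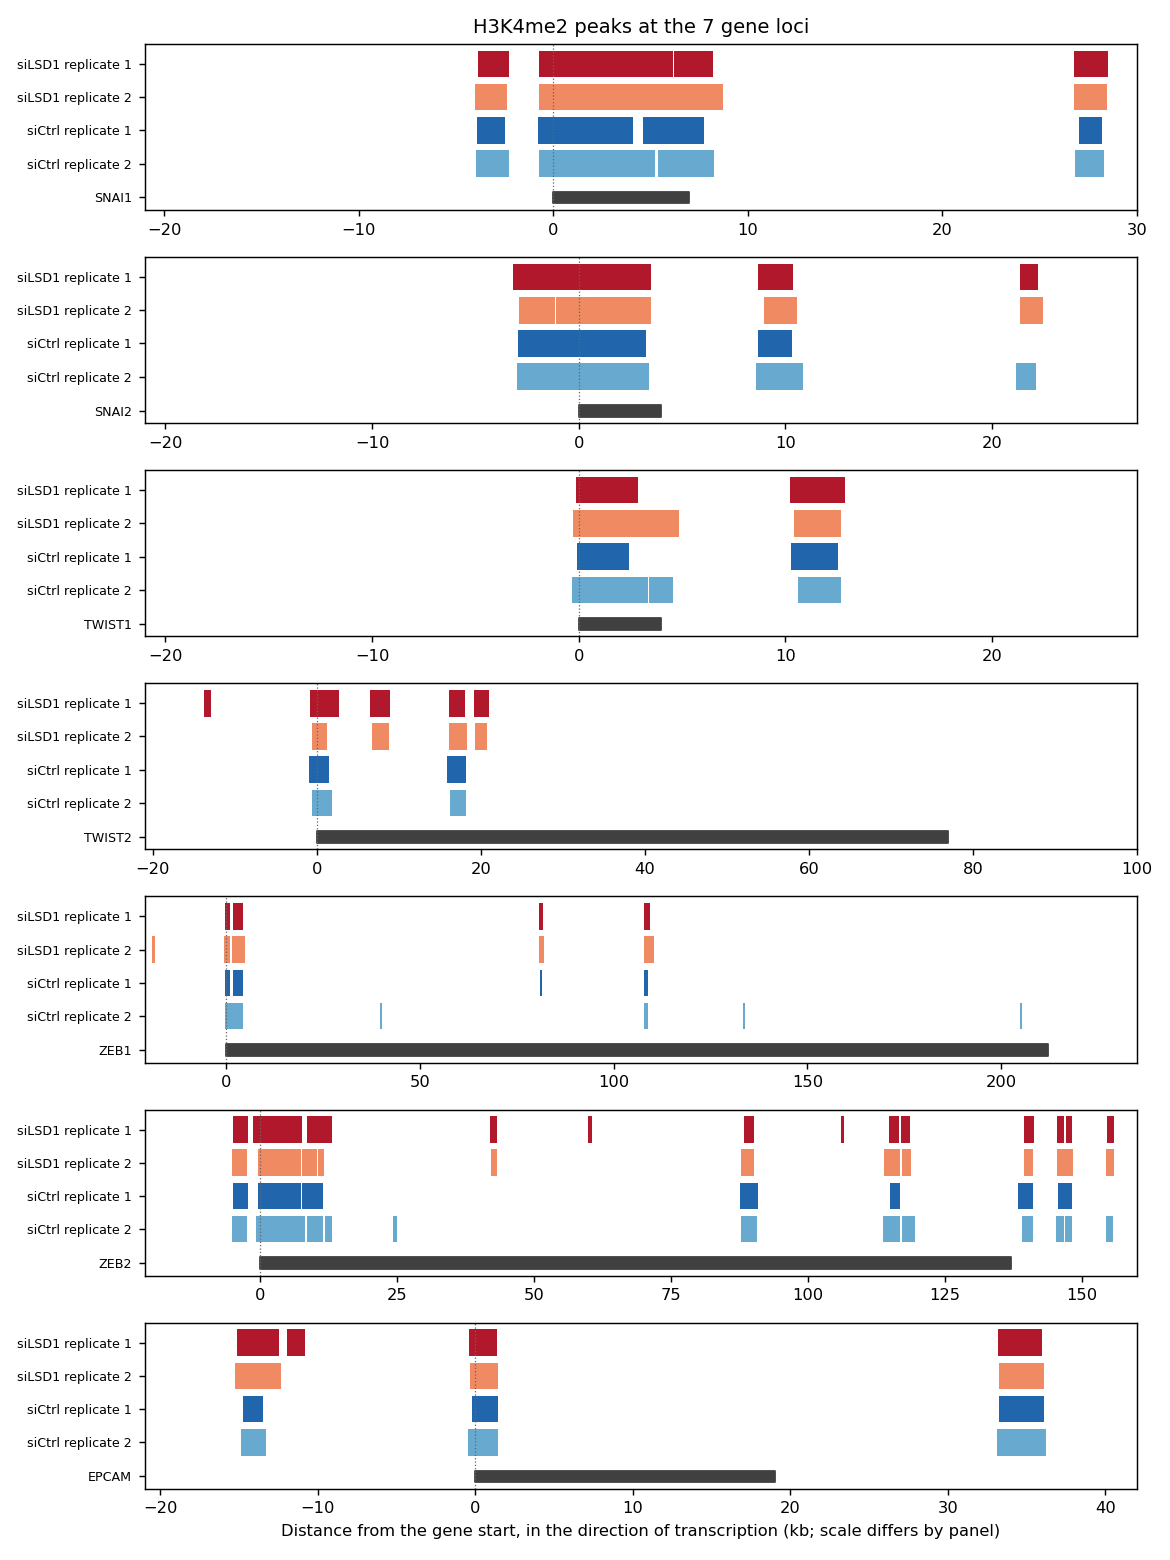
Peaks at the 7 loci by library, in kb from the gene start in the direction of transcription, with the siLSD1 libraries above the siCtrl libraries and the gene interval as a dark bar (horizontal scales differ). Each gene start carries a peak in all 4 libraries, and TWIST2 has peaks 6.43 to 8.91 kb and 19.2 to 21.0 kb into the gene in the siLSD1 libraries only.

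SNAI1, the founding EMT repressor, carried one of the broadest marks among the 7. Its start region spanned chromosome 20 from 48598234 to 48607709, the whole gene and the sequence just after it. In this region 8919 and 9423 bp were under peaks in the siLSD1 libraries, against 7981 and 8854 bp in the siCtrl libraries. The groups did not overlap, but siLSD1 replicate 1 and siCtrl replicate 2 were close. With equal numbers of peaks from each list, the mean difference of the region had the opposite sign, at -0.269 kb. The highest-scoring peak of this region ranked at the 98.2 and 97.0 percentile of the siLSD1 lists and at the 96.8 and 98.0 percentile of the siCtrl lists. A narrower upstream region, -4.04 to -2.26 kb from the start, had 1592 and 1677 bp in the siLSD1 libraries, and 1457 and 1704 bp in the siCtrl libraries. A downstream region, 26.8 to 28.5 kb after the start, had 1754 and 1687 bp in the siLSD1 libraries, against 1166 and 1496 bp in the siCtrl libraries. Both siLSD1 libraries were higher. Most of this region lay past the edge of the locus, and the siCtrl replicate 1 peak lay wholly past it. Over the whole SNAI1 locus, 10.7 and 11.3 kb were under peaks after siLSD1 and 9.44 and 10.7 kb after siCtrl, and the groups overlapped.

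SNAI2, which encodes the related repressor Slug, was marked on both sides of its start, on chromosome 8 from 49830479 to 49837164. This region had 6686 and 6371 bp in the siLSD1 libraries, and 6211 and 6372 bp in the siCtrl libraries. The siLSD1 replicate 2 and siCtrl replicate 2 values thus differed by 1 bp. The rank of its best peak was the 98.1 and 97.2 percentile of the siLSD1 lists, above the 93.0 and 87.7 percentile of the siCtrl lists. A region 8.59 to 10.9 kb past the start was common to all libraries, and a weak one 21.2 to 22.5 kb past it was missing only from siCtrl replicate 1. The locus had 9.28 and 9.11 kb under peaks after siLSD1, and 7.87 and 9.59 kb after siCtrl. The siLSD1 values lay between the siCtrl values, and the mean difference of 0.462 kb was -0.400 kb without siCtrl replicate 1.

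TWIST1, a bHLH factor of neural crest and mesoderm, had 2 common regions. Its start region, on chromosome 7 from 19153165 to 19158336, differed more between replicates than between siRNAs. There were 2998 and 5099 bp under peaks in siLSD1 replicates 1 and 2, and 2500 and 4838 bp in siCtrl replicates 1 and 2. A second region began 10.2 kb past the start and ended at 12.9 kb. It had 2647 and 2298 bp in the siLSD1 libraries and 2259 and 2036 bp in the siCtrl libraries, so that both siLSD1 libraries were broader. The TWIST1 locus in all had 5.65 and 7.40 kb under peaks after siLSD1, against 4.76 and 6.87 kb after siCtrl, and the groups overlapped. The mean difference of 0.704 kb was -0.353 kb without siCtrl replicate 1 and -0.172 kb without siLSD1 replicate 2.

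TWIST2, the close relative of TWIST1, had the largest ratio between the groups among the 7 loci. In the siLSD1 libraries 10.7 and 7.60 kb of its locus were under peaks, against 4.66 and 4.42 kb in the siCtrl libraries. The means were 9.14 ± 2.18 kb and 4.54 ± 0.171 kb (SD, n = 2 each), a ratio of 2.01. Both siLSD1 libraries were above both siCtrl libraries, with an exact two-sided permutation p of 0.333, below which a design of this size cannot go. The difference of 4.602 kb was 3.06 kb without siLSD1 replicate 1 and 6.15 kb without siLSD1 replicate 2. With equal numbers of peaks it was 2.52 kb, and with the upper 50% of each list by score 1.46 kb, where the groups overlapped. Scaled to covered length it was 3.18 kb.

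The separation lay inside the gene. The region at the start of TWIST2, on chromosome 2 from 239755051 to 239758691, had 3532 and 1843 bp in the siLSD1 libraries and 2427 and 2504 bp in the siCtrl libraries, so the siLSD1 values enclosed the others. A region 6.43 to 8.91 kb past the start, from 239762427 to 239764914, had 2488 and 2127 bp under peaks after siLSD1 and 0 bp in either siCtrl library. Its scores ranked at the 55.8 and 48.3 percentile of the siLSD1 lists. It was also called in the siLSD1 libraries alone when equal numbers of peaks were taken. In the upper 50% by score it was left in siLSD1 replicate 1 alone and was no longer a gained region. In the authors' pooled lists, however, the pooled siCtrl list did hold a peak over this region, with a score of 56.8 at the 4.24 percentile, against 375.9 at the 61.0 percentile in the pooled siLSD1 list. A second region, 19.2 to 21.0 kb past the start, from 239775175 to 239776973, had 1799 and 1487 bp after siLSD1 and 0 bp after siCtrl. Its peaks ranked low, at the 6.89 and 12.3 percentile, and were absent from all lists of equal length. Between these lay a common region, 15.9 to 18.3 kb past the start, with 1996 and 2141 bp after siLSD1 and 2234 and 1915 bp after siCtrl. Within their own lists of unequal length, its peaks were at the 80.1 and 81.3 percentile after siLSD1, against 61.0 and 65.9 after siCtrl. No peak of any library lay in the rest of the TWIST2 gene, and upstream a weak peak of 870 bp was found in siLSD1 replicate 1 alone.

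The RefSeq promoter window of TWIST2 (250 bases before to 50 after the annotated start; GRCh38.p14, chr2:238847835-238848134, plus strand) is shown because the start was marked after either siRNA. Windows of 3 of the 7 genes were used, TWIST2, ZEB1 and ZEB2. E-boxes were searched as CANNTG, a form that reads alike on both strands, and are in capitals in all windows shown. The TWIST2 window holds 0 of them, and 68.7% of the 35116 RefSeq windows of this length hold at least 1.
TWIST2: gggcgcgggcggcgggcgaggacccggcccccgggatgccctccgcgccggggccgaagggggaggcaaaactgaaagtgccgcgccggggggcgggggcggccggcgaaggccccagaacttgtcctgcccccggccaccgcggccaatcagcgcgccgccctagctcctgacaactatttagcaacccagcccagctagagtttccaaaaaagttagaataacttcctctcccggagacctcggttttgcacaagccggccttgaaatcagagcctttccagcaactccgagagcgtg

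**Figure D2:**
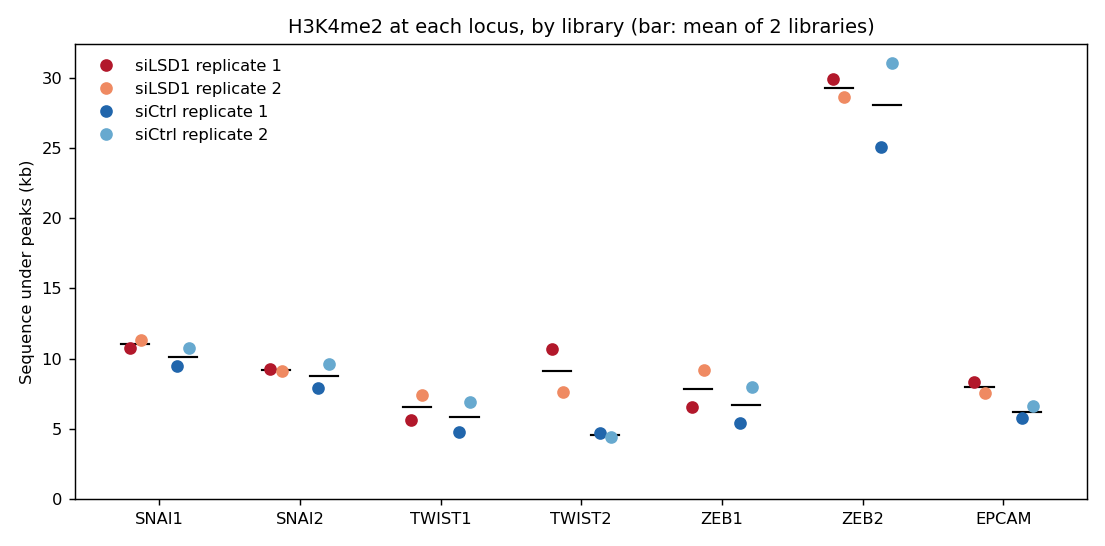
Kilobases under H3K4me2 peaks in each locus, 1 point per library, with the 2 siLSD1 libraries left of the 2 siCtrl libraries and a bar at each mean. At TWIST2 the siLSD1 libraries had 10.7 and 7.60 kb, against 4.66 and 4.42 kb in the siCtrl libraries, and at EPCAM the siLSD1 libraries had 8.33 and 7.58 kb, against 5.75 and 6.59 kb in the siCtrl libraries, while the groups overlapped at the other 5 loci.

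ZEB1, a zinc finger homeobox repressor of epithelial genes, was marked mainly at its start. The start region, on chromosome 10 from 31606594 to 31611942, had 4040 and 4789 bp under peaks after siLSD1, and 3776 and 4807 bp after siCtrl. The same stretch was a single peak of 4807 bp in siCtrl replicate 2 and a pair of peaks in each of the other 3 libraries. Within the long gene body, a common region 107.7 to 110.4 kb past the start had 1485 and 2628 bp in the siLSD1 libraries, against 1022 and 1079 bp in the siCtrl libraries. The siLSD1 libraries were the broader, and its peaks ranked at the 54.3 and 72.2 percentile after siLSD1 and at the 23.2 and 39.2 percentile after siCtrl. A weak region 80.8 to 82.0 kb past the start was found in both siLSD1 libraries and in siCtrl replicate 1. A further 4 weak sites were each called in a single library, 3 of them in siCtrl replicate 2. The locus had 6.55 and 9.15 kb under peaks after siLSD1 and 5.42 and 7.97 kb after siCtrl, and the groups overlapped. The mean difference of 1.15 kb was -0.122 kb without siCtrl replicate 1 and -0.149 kb without siLSD1 replicate 2.

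ZEB1 has 7 RefSeq promoter windows. CAGGTG or its reverse complement CACCTG, the E-box forms bound by SNAI and ZEB factors, occurred in 2 of these 7 windows and in 20.6% of all 35116. The window with the most of them, 3, is shown for that reason (GRCh38.p14, chr10:31318966-31319265, plus strand). These matches lie at -242, -85 and 33 bases from the annotated start.
ZEB1: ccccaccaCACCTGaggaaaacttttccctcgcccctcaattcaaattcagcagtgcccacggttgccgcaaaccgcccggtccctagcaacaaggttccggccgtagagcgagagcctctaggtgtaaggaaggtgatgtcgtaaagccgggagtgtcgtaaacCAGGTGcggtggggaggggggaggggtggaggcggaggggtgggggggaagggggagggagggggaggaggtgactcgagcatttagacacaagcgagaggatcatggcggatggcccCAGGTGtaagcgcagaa

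ZEB2, the paralogue of ZEB1, had the most extensive mark of the 7. Its locus held 29.9 and 28.6 kb under peaks in the siLSD1 libraries, and 25.04 and 31.1 kb in the siCtrl libraries, with the siLSD1 values between the siCtrl values. The mean difference of 1.22 kb was -1.80 kb without siCtrl replicate 1. The start region ran from -1.31 to 13.1 kb from the start, on chromosome 2 from 145264886 to 145279308. It had 13485 and 11807 bp under peaks after siLSD1, and 11677 and 13179 bp after siCtrl. Its widest peak was broader than 99.8% and 99.3% of all peaks in the siLSD1 lists, and than 99.6% and 99.4% in the siCtrl lists. Of its 12 regions, 6 were common to all libraries, 1 was gained and 0 were lost. The gained region lay 42.0 to 43.3 kb past the start, from 145234672 to 145235963, with 1209 and 1160 bp after siLSD1 and 0 bp after siCtrl. Its peaks ranked at the 17.6 and 30.8 percentile and were absent from lists of equal length. ZEB2 was also the only one of the 7 loci with common regions narrower in both siLSD1 libraries. One lay 87.7 to 90.9 kb past the start and had 1780 and 2313 bp after siLSD1, against 3203 and 2876 bp after siCtrl. The other lay just past the end of the gene, 138.3 to 141.2 kb from the start, and had 1858 and 1637 bp after siLSD1, against 2811 and 2003 bp after siCtrl. Both narrower sites nonetheless had higher score percentiles after siLSD1, within lists of unequal length. The site inside the gene was at the 89.9 and 74.1 percentile, against 44.3 and 69.7 after siCtrl. The site past its end was at the 64.9 and 61.9 percentile, against 55.9 and 55.2 after siCtrl. Of the other regions, 3 common ones overlapped between the groups, 2 were missing only from siCtrl replicate 1, and 3 were each found in a single library.

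The promoter window of ZEB2 (GRCh38.p14, chr2:144520070-144520369, minus strand) is shown beside that of its paralogue, and holds 1 E-box of the form CANNTG and 0 of the form CAGGTG or CACCTG.
ZEB2: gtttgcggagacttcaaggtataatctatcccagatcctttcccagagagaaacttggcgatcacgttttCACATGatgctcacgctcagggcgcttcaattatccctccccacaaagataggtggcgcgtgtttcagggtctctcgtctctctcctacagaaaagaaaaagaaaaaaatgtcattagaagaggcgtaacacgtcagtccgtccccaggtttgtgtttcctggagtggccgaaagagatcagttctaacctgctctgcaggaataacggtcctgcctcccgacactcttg

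EPCAM, the gene of an adhesion molecule of epithelial cells, was marked at its start in all 4 libraries. The start region, on chromosome 2 from 47595564 to 47597465, had 1761 and 1819 bp after siLSD1, and 1670 and 1872 bp after siCtrl, and the siLSD1 values lay between the siCtrl values. Its peak ranked at the 79.5 and 88.5 percentile of the siLSD1 lists and at the 92.1 and 80.6 percentile of the siCtrl lists. The upstream region, from -15.2 to -12.4 kb relative to the start (47580760 to 47583630), was the broader in both siLSD1 libraries. It had 2632 and 2871 bp after siLSD1 and 1242 and 1565 bp after siCtrl. Within lists of unequal length, this region was at the 56.1 and 72.2 percentile after siLSD1, against 0.965 and 39.1 after siCtrl. A peak of 1149 bp next to it, -11.9 to -10.8 kb from the start, was found in siLSD1 replicate 1 alone. In all, 8.33 and 7.58 kb of the EPCAM locus were under peaks after siLSD1, against 5.75 and 6.59 kb after siCtrl. The means were 7.95 ± 0.531 kb and 6.17 ± 0.590 kb (SD, n = 2 each), with a ratio of 1.29 and an exact two-sided permutation p of 0.333. Without the flanks, the difference at EPCAM was -0.012 kb, and scaled to covered length it was 0.295 kb, with the groups overlapping.

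**Figure D3:**
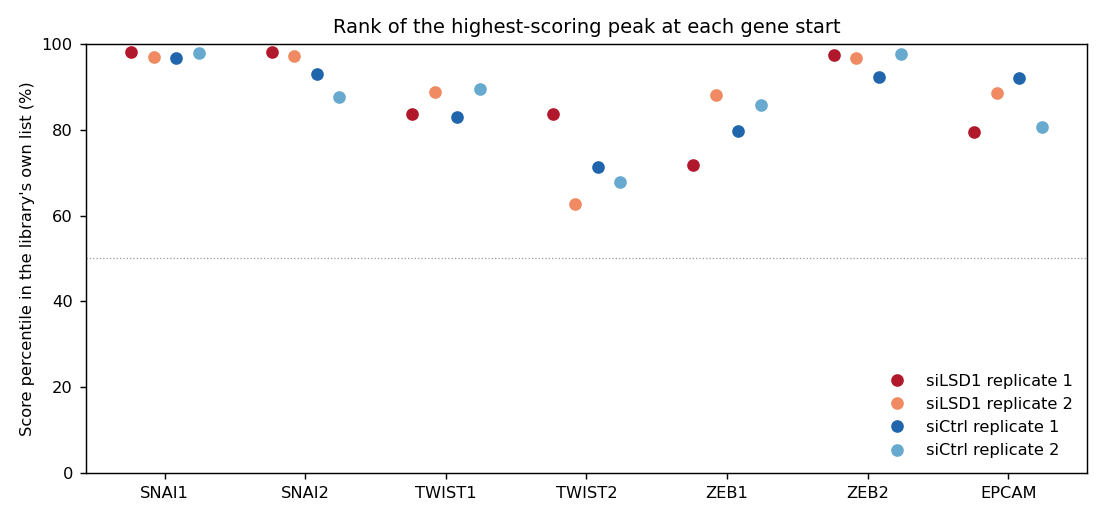
Score percentile, within each library's own list, of the highest-scoring peak at each gene start (1 point per library, siLSD1 left of siCtrl). The SNAI1 start lies at or above the 96.8 percentile in all 4 libraries, and the TWIST2 start is lower, between the 62.8 and 83.7 percentile.

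The 7 loci differed in how much of their length was marked. Peaks covered 23.5% of the SNAI1 locus after siLSD1 and 21.5% after siCtrl, and 20.9% of the SNAI2 locus after siLSD1 and 19.8% after siCtrl, as group means. The share at ZEB2 was 16.5% after siLSD1 and 15.9% after siCtrl, and at TWIST1 14.8% after siLSD1 and 13.2% after siCtrl. EPCAM had 13.5% after siLSD1 and 10.5% after siCtrl, TWIST2 7.81% after siLSD1 and 3.88% after siCtrl, and ZEB1 3.11% after siLSD1 and 2.66% after siCtrl. ZEB1, with the longest locus, thus had the smallest share. Neighbours in this order overlapped in their library values from SNAI1 to SNAI2, from ZEB2 to TWIST1 and from TWIST1 to EPCAM. The values did not overlap from SNAI2 to ZEB2, from EPCAM to TWIST2 or from TWIST2 to ZEB1.

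Regions were built by merging overlapping peaks of the 4 libraries. Gained regions had a peak in each siLSD1 library and in no siCtrl library, and lost regions the reverse. Of 36 regions in the 7 loci, 20 (55.6%) were common to all 4 libraries, beside 45.2% of all 58952 regions. Gained regions numbered 3 (8.33%), 2 in TWIST2 and 1 in ZEB2, beside 6.97% of all regions, and 0 were lost, beside 1.04%. The share of gained regions was thus near that of the genome. Of the 20 common regions, 5 (25%) had siLSD1 values that were all above the siCtrl values (broader), beside 30.3% of all 26653 common regions, and 2 (10%) were narrower, beside 9.62%. Both shares were again near the background. The 5 broader regions were those upstream of EPCAM, at the start and downstream of SNAI1, downstream of TWIST1 and in the body of ZEB1. Without siCtrl replicate 1, which leaves siCtrl replicate 2 alone to be compared and so makes each call easier, 4 regions were gained, 4 lost, 8 broader and 9 narrower. Over all regions the shares at that setting were 7.90% gained, 7.05% lost, 37.8% broader and 30.702% narrower.

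The gene starts were set beside the other regions. Regions were taken at full length, and the one downstream of SNAI1 ran past the edge of its locus, so these sums exceed those of the loci. The 7 start regions held 41.4 and 41.2 kb under peaks after siLSD1, and 36.2 and 42.4 kb after siCtrl, a ratio of the means of 1.05. The other 29 regions held 41.3 and 41.1 kb after siLSD1, against 27.9 and 36.1 kb after siCtrl, a ratio of 1.29. In these both siLSD1 libraries were above both siCtrl libraries, while at the starts siCtrl replicate 2 was the highest of the 4. Without siCtrl replicate 1 the ratio at the starts was 0.973, a difference of -1.14 kb. The ratio of the other regions was 1.14 without siCtrl replicate 1 and 1.13 with equal numbers of peaks. With equal numbers the groups overlapped there, at 31.6 and 35.6 kb after siLSD1 against 27.9 and 31.8 kb after siCtrl. No test of the difference between these classes was run, and their ratios over the whole genome are not given here.

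**Figure D4:**
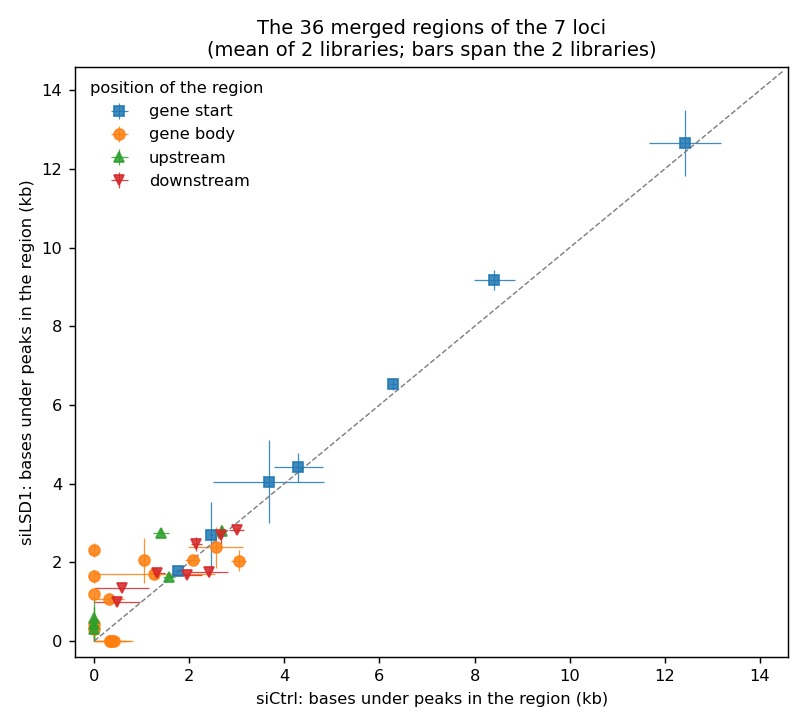
Bases under peaks in each of the 36 merged regions, as siLSD1 mean (vertical) against siCtrl mean (horizontal), with bars spanning the 2 libraries and symbols for position relative to the gene. The 7 start regions lie close to the dashed line of equality, and the 3 gained regions stand at 0 on the siCtrl axis with means of 1.18 to 2.31 kb.

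In a test of breadth over the genome, kilobases under peaks in 10-kb windows were fitted with limma over 43372 windows, of which 30 lay in the 7 loci. After Benjamini-Hochberg adjustment 0 of the 30 passed in either direction, beside 0% of all windows. At an unadjusted p under 0.05, limma had 4 of the 30 higher and 1 lower after siLSD1, beside 12.4% and 1.94% of all windows. The median difference was 0.309 kb over the 30 windows and 0.213 kb over all. The window with the smallest p held the first gained TWIST2 region (chromosome 2, 239760001 to 239770000), where the limma estimate was 2.31 ± 0.226 kb (SE) with an adjusted p of 0.129. The next was the neighbouring TWIST2 window (239770001 to 239780000), with 1.64 ± 0.212 kb (SE) and the same adjusted p of 0.129 from limma. The gained ZEB2 region and the region upstream of EPCAM gave 1.18 and 1.92 kb, with limma adjusted p of 0.129 and 0.165. Windows entered the fit when at least 2 libraries had 0.5 kb or more, so the windows of the first gained TWIST2 region and of the gained ZEB2 region, at 0 kb in both siCtrl libraries, entered only through the siLSD1 libraries in which they were high. The lower window held the narrowed ZEB2 region, at -0.85 kb and a limma adjusted p of 0.205.

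The authors' pooled lists, 1 per siRNA and so without replicates, held 34 peaks in the 7 loci after siLSD1 and 28 after siCtrl. Of these, 8 (23.5%) were found in the pooled siLSD1 list only, beside 27% of all its peaks, and 2 (7.14%) in the pooled siCtrl list only, beside 8.86%. The 8 lay in ZEB2 (3), TWIST2 (2), ZEB1 (2) and SNAI2 (1), and the 2 in the body of ZEB1. Of the 8, 2 were also gained regions of the library lists, the second gained region of TWIST2 and that of ZEB2, with scores of 99.4 and 176.6. Pooled peaks covered 12.5 kb of the TWIST2 locus after siLSD1 against 8.96 kb after siCtrl, a ratio of 1.39. The EPCAM locus had 8.24 kb after siLSD1 and 7.97 kb after siCtrl, a ratio of 1.03, a smaller ratio than the 1.29 between the library lists. Of the region upstream of EPCAM, 2871 bp lay under peaks of the pooled siLSD1 list and 2705 bp under peaks of the pooled siCtrl list.

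Further genes of the pathway were taken from 4 lists, which with the 4 muscle genes held 29 genes, each with 20 kb on either side. In 50-kb windows over the genome, both siLSD1 libraries were above both siCtrl libraries in 32.6%, and below them in 5.61%. By the same measure, 2 of the 7 loci (TWIST2 and EPCAM) had both siLSD1 libraries above, and 0 below. Of 8 epithelial genes 4 were above and 0 below, of 3 mesenchymal genes 2 and 0, of 6 other EMT factors 2 and 0, and of 8 genes of TGF-beta signalling, a main inducer of EMT, 5 and 0. Their median differences were 0.919 kb for epithelial genes, 2.83 kb for mesenchymal genes, 1.23 kb for other factors and 3.37 kb for TGF-beta signalling. Beside these, the median was 1.15 kb for the 7 loci and 0.411 kb for the 50-kb windows. These values are not scaled to interval length, which differs between the lists, the loci and the windows, so they do not rank the lists by response. By list, the gene with the highest mean difference was TCF4 among other factors, an E-protein partner of bHLH factors, with 47.3 and 51.0 kb after siLSD1 against 30.2 and 52.7 kb after siCtrl, where the groups overlapped. Among mesenchymal genes it was CDH2, the gene of N-cadherin, with 15.9 and 15.8 kb after siLSD1 against 9.80 and 14.48 kb after siCtrl. Among genes of TGF-beta signalling it was SMAD3, a transducer of these signals, which had 44.6 and 51.0 kb under peaks after siLSD1, against 25.3 and 32.7 kb after siCtrl. The lowest within each list were GSC among other factors (-0.118 kb), CDH1 among epithelial genes (-0.564 kb), FN1 among mesenchymal genes (0.482 kb) and SMAD4 in TGF-beta signalling (0.384 kb). The intervals used for CDH2, SMAD2, SMAD4 and TGFB1 differed from the RefSeq gene lengths by more than 5 kb. Of the 4 muscle genes used to check the cell label, 3 (MYOD1, MYOG and DES) had both siLSD1 libraries below both siCtrl libraries, and the median difference of the 4 was -2.47 kb.

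Among the epithelial genes the largest difference was at the microRNA cluster from MIR200B to MIR429 on chromosome 1. Its microRNAs, with those of the cluster of MIR200C and MIR141 on chromosome 12, are known to repress ZEB1 and ZEB2, which in turn repress these microRNA genes. The mature RNAs (RefSeq, GRCh38.p14) are shown because their seeds, bases 2 to 8 in capitals, put them into a pair of groups, the first 3 with AAUACUG and the last 2 with AACACUG.
hsa-miR-200b-3p: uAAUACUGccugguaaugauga
hsa-miR-200c-3p: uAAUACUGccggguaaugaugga
hsa-miR-429: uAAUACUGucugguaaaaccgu
hsa-miR-200a-3p: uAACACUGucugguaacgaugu
hsa-miR-141-3p: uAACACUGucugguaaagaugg

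Around the MIR200B to MIR429 cluster, 6.55 and 6.43 kb were under peaks in the siLSD1 libraries, against 1.507 and 1.499 kb in the siCtrl libraries. The siCtrl values, though alike, came from different sites. In siCtrl replicate 1 the peak lay in 1092557 to 1094237, and in siCtrl replicate 2 in 1099179 to 1100944. Each of these sites had 0 bp in the other siCtrl library and a peak in each siLSD1 library. A gained region lay 2.57 to 4.25 kb past the start of the cluster (hg19, 1104570 to 1106251) with 1316 and 1193 bp after siLSD1, and another 6.58 to 8.61 kb past it (1108578 to 1110605) with 2028 and 1865 bp. Both had 0 bp in the siCtrl libraries, and gained regions were 6.97% of all regions. The peaks ranked at the 19.2 and 43.6 percentile in the first and at the 62.7 and 51.3 percentile in the second. The cluster of MIR200C and MIR141 had 6.42 and 6.78 kb after siLSD1 and 5.42 and 6.999 kb after siCtrl, and the groups overlapped. Which gene a region belongs to was not analysed here.

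**Figure D5:**
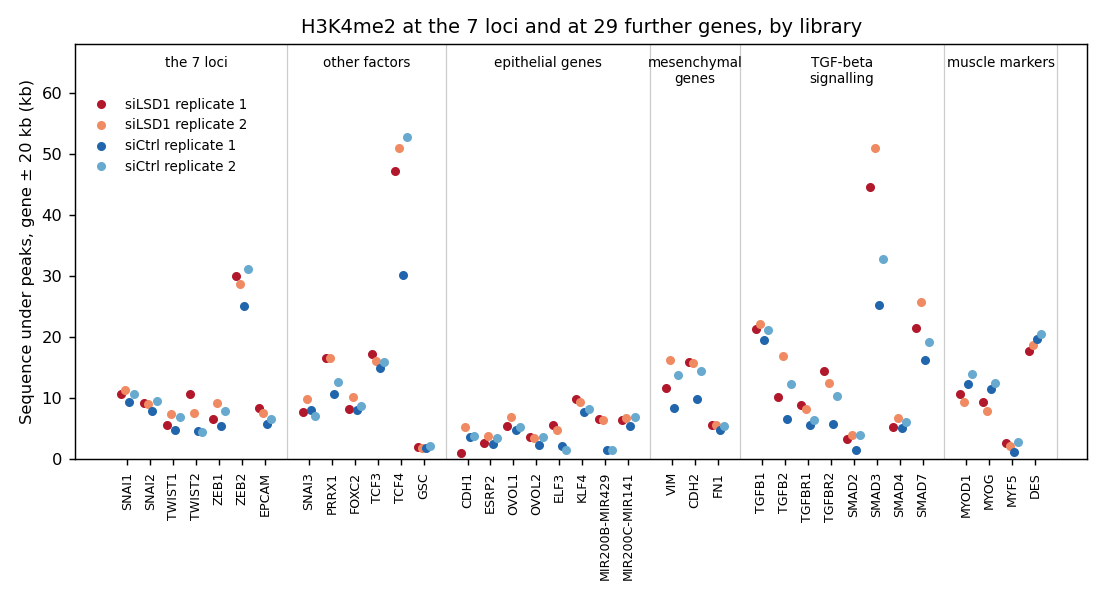
Kilobases under H3K4me2 peaks at the 7 loci and at the 29 further genes, each with 20 kb on either side, 1 point per library and siLSD1 left of siCtrl. The MIR200B to MIR429 cluster had 6.55 and 6.43 kb in the siLSD1 libraries, against 1.507 and 1.499 kb in the siCtrl libraries, and SMAD3 had 44.6 and 51.0 kb in the siLSD1 libraries, against 25.3 and 32.7 kb in the siCtrl libraries.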

How the data were processed

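H3K4me2 ChIP-seq peak lists were analysed, 1 for each of 4 libraries and 1 pooled list per siRNA; the 4 input libraries were not analysed here. Per the submitters' processing notes, reads were aligned with Bowtie to hg19. Per the file contents, peaks are named after MACS. Its version and settings and the use of the inputs are not given in the labels. Per the series' design text the authors combined the replicates for their own analysis, without saying at which step. The deposited score of each peak is the authors' own value, at least 50 in each library list. It was used only within a list, as the percentile of peaks scoring no higher. The lists differ in length, so a percentile also depends on how many weak peaks a list holds. Shifts in percentile over all regions are not given here. With no depth in the files, no counting interval is given.

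Peaks on chromosomes 1 to 22 and X were kept, with coordinates counted from 1. Kilobases under peaks were summed within each locus. Distances are from the end of the gene interval at which transcription starts. Peaks sharing 1 bp or more formed a region, and one touching a start within 1 kb is the start region. The intervals of the 29 further genes were entered by hand. Of these, 27 have a RefSeq length, all on the same chromosome, and 23 were within 5 kb of it. Those outside it were TGFB1 (53 kb against 23.6 kb in RefSeq), SMAD4 (118 against 54.8), SMAD2 (100 against 121.9) and CDH2 (227 against 244.3). Values of these genes are therefore less certain. RefSeq tables (GRCh38.p14) also gave names, neighbours and sequences.

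Single loci were compared by exact permutation (scipy 1.17.1). Windows of 10 kb with at least 0.5 kb under peaks in at least 2 libraries were fitted with limma 3.58.1 (trend, robust; statmod 1.5.0, R 4.3.3), with Benjamini-Hochberg adjustment over all windows and a threshold of 0.05. Python 3.11.15, numpy 2.4.6, pandas 2.3.3 and matplotlib 3.10.9 did the rest, and steps were tested on simulated data. The limma p-values rest on the spread between these libraries, which may be technical, with variances moderated over all windows. The exact permutation p cannot go below 0.333 with 2 libraries per group, however small their spread. The members and gene lists were chosen with earlier results of these data known. All 7 loci are named; in other lists, the genes with the largest and smallest mean difference. Alternatives were other flanks, equal numbers of peaks (33878 per library list), the upper 50% by score, scaling to covered length, other merging, windows and limma settings, a replicate block, and leaving out each library. Whole peak lengths, and alternatives for start regions and further genes, were added after seeing the data. One common region of the EPCAM locus is counted in the totals but not described here.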

Additional observations from a re-analysis of the deposited data

How the results depend on the processing

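TWIST2 and EPCAM had higher siLSD1 than siCtrl means under each flank, list length and scaling tried and without each library, except EPCAM without flanks, at -0.012 kb. TWIST2 ranged from 3.06 to 6.15 kb when 1 library was left out. The other loci turned with the setting, and the cause was not tested. Scaled to covered length, the differences were -1.34 kb at SNAI1, -1.42 at SNAI2, -0.538 at TWIST1, -0.311 at ZEB1 and -4.76 at ZEB2. With equal numbers of peaks they were -0.0785 kb at SNAI1, -0.052 at SNAI2 and -0.457 at ZEB2, and -0.269 at the SNAI1 start. When 1 library was left out, SNAI2 ranged from -0.400 to 1.32 kb, TWIST1 from -0.353 to 1.76, ZEB1 from -0.149 to 2.45 and ZEB2 from -1.80 to 4.24, each lowest without siCtrl replicate 1 except ZEB1, lowest without siLSD1 replicate 2. Start regions ranged from -0.082 to 0.12 kb at EPCAM, -0.790 to 1.55 at TWIST1, -0.623 to 1.07 at TWIST2, -0.393 to 0.639 at ZEB1 and -0.621 to 1.06 at ZEB2, and their sum from -1.14 to 5.04 kb.

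Gained regions numbered 6 of 50 with 50-kb flanks, beside 6.97% of all regions. When 1 library was left out, 4 to 7 of 33 to 37 regions were gained and 0 to 4 lost. At these settings 7 to 12 of 20 to 23 common regions were broader and 3 to 9 narrower. Over all regions, leaving out 1 library gave 7.90% to 19.5% gained, 2.49% to 7.05% lost, 37.8% to 63.1% broader and 14.1% to 30.702% narrower. Without flanks, 2 of 11 common regions were broader and 1 narrower, beside 30.3% and 9.62% of all common regions. In the upper 50% by score, 2 of 13 were broader and 1 narrower, beside 28.7% and 9.79%. Pooled peaks in the siLSD1 list only numbered 3 with equal numbers, and those in the siCtrl list only numbered 0 in the upper 50%. With equal numbers, 0 other factors were above, and 1 epithelial gene was below and 1 muscle gene above. Leaving out 1 library gave 2 to 4 other factors above and 0 to 2 below, and 4 to 7 epithelial genes above and 0 to 1 below. It also gave 5 to 8 TGF-beta genes above and 0 to 1 below, and 0 to 1 muscle genes above. For these pooled and gene-list counts, the shares over the genome at the same settings are not given here.

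With a replicate block, limma again had 0 windows of the 7 loci at an adjusted p under 0.05 in either direction. The other limma settings also gave 0. Quantile normalization put the median difference at -0.15 kb over all windows and -0.02 kb over the 30 of the loci, against 0.213 and 0.309 kb without it. Deviations of same-numbered libraries correlated at 0.15 over 43372 windows, and with 2 pairs the numbers were not taken to pair the libraries. The lists give no depth, so weak peaks missing from a list cannot be told from peaks below its limit.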
